A study of Mus musculus with 12 samples.

Results

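This report describes 35 genes of the p53 pathway and the DNA damage response in mouse haematopoietic stem cells, out of 33180 genes tested on the same arrays. That number, and all genes below, include array features without a gene symbol. The list was given by name: p53 and its inhibitors, p53 targets of cell cycle arrest, stress and death, and genes that sense or repair damaged DNA. All 35 were on the array and all 35 passed the filter on dim signal, 30 of them well above background on all 12 arrays. The stem cells were sorted from marrow that had first been enriched for cells bearing Kit, by the lineage, Sca-1, Kit and SLAM gate, and each of 12 male mice gave 1 single-colour array. The 3 mice of the POL5551 group were infused without pause for 14 days with 100 mg/kg per day of POL5551, which blocks the chemokine receptor CXCR4. Both G-CSF groups of 3 mice received 100 ug/kg per injection of granulocyte colony-stimulating factor every 12 h, with 9 injections over 5 days in one group and 4 over 2 days in the other. The 3 mice of the control group were sham-operated, and the labels mention injections only for G-CSF mice and surgery only for sham mice, so a comparison of G-CSF with sham also holds that difference. The labels used here name neither strain nor age. RNA came from a whole sorted population, so fewer cells that use a gene and less RNA per cell cannot be told apart.

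The p53 protein is a transcription factor that is made and destroyed continuously in unstressed cells, because its target Mdm2 marks it for degradation. When DNA breaks or replication stalls, the kinases Atm and Atr, with Chek2 and Chek1 downstream, free p53 from its inhibitors, and it then switches on genes of arrest, repair and death. Since much of this control acts on the protein, the transcript of p53 itself says little about its activity, and the level of its targets is the usual transcript readout. In stem cells of the marrow the pathway is known for holding cells out of cycle and for removing damaged cells.

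The sequences below are of 2 kinds, probes and promoters. The probes of Plk2, Trp53 and Chek1 are shown because Plk2 had the smallest p over the 4 groups, Trp53 a value that depends on a single array, and Chek1 no overlap between POL5551 and sham. They lie at chr13:111187720-111187900 (plus strand, across an intron), chr11:69403134-69403193 (plus strand) and chr9:36531507-36531566 (minus strand) of mouse build mm9, the build of the array design.
Plk2 probe: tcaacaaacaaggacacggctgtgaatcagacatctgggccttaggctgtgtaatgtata
Trp53 probe: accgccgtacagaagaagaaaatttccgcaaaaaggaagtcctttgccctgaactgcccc
Chek1 probe: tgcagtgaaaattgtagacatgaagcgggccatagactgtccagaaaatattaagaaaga

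The RefSeq promoter windows, 250 bases before to 50 after a gene's start on GRCm38.p6, matched 26 of the 35 genes. The p53 response element, searched as its consensus unit of 10 bases, which reads the same on both strands, was present in 9 of these 26 genes (34.6%), against 2582 of 27025 genes in the whole table (9.55%). Those 9 were Trp53, Mdm2, Ppm1d, Ccng1, Sesn1, Ei24, Aen, Polk and Fanca, and each gene's window held 1 such unit, whereas p53 binds a pair of them. A match of letters is a description of the window and not evidence of binding. The 250 bases before the start of 4 targets are given with that unit in capitals. Mdm2 is at chr10:117710759-117711008 (minus strand), Ccng1 at chr11:40755287-40755536 (minus), Sesn1 at chr10:41887189-41887438 (plus) and Ei24 at chr9:36797335-36797584 (minus).
Mdm2: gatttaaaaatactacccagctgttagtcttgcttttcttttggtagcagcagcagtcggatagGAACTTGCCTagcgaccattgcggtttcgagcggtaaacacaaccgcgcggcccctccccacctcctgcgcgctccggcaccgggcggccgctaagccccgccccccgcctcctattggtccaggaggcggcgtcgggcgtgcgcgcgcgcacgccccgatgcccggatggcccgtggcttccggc
Ccng1: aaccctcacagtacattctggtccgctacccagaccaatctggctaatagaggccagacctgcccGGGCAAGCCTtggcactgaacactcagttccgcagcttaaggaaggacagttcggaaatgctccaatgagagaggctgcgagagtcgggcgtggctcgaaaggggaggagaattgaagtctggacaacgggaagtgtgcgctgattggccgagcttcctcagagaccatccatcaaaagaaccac
Sesn1: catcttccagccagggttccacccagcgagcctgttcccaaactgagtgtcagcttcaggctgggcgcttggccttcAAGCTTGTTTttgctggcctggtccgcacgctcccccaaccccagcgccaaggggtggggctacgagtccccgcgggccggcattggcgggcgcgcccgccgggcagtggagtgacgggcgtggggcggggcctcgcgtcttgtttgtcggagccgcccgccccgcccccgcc
Ei24: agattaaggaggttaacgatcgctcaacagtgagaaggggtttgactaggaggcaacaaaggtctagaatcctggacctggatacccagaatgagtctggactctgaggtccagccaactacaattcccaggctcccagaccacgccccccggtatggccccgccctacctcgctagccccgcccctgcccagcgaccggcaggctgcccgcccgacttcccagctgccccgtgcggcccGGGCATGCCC

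Levels are given as log2 of a probe's processed signal relative to the 75th percentile of its array, so that 0 is that percentile, and they are not compared between genes because each probe binds differently. Sham mouse 1 stood apart from the other arrays. It had the lowest of the 12 levels for 12 of the 35 genes (34.3%) and the highest for 4 (11.4%), while over all genes it was lowest for 18.0% and highest for 36.1%. Probes for olfactory, vomeronasal, taste and keratin-associated genes, which blood cells are not expected to use, also differed between arrays: the median level of these 1540 off-tissue probes was -5.50 to -4.41 in POL5551 mice, -4.25 to -3.50 in 5-day G-CSF mice, -2.98 to -2.68 in 2-day G-CSF mice and -3.72 to -1.82 in sham mice, with -1.82 in sham mouse 1. Markers of the sorted cells were present: of 14 stem cell genes, 14 were well above background on all arrays of the POL5551 and of both G-CSF groups, and 11 on all sham arrays. Genes of stroma and osteoblasts, which the gate should remove, were also detected (9 of 9 on all POL5551 arrays and all arrays of both G-CSF groups, 8 of 9 on all sham arrays). Their summed signal, in multiples of the 75th percentile, was 12.1 to 39.1 in POL5551, 8.34 to 29.5 in 5-day G-CSF, 5.21 to 31.4 in 2-day G-CSF and 3.94 to 7.02 in sham. The summed signal of 8 mature neutrophil genes was 2.55 to 9.41 in POL5551, 2.84 to 6.28 in 5-day G-CSF, 2.22 to 6.06 in 2-day G-CSF and 1.62 to 6.50 in sham. The part of these other cells in the results below was not tested.

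**Figure D1:**
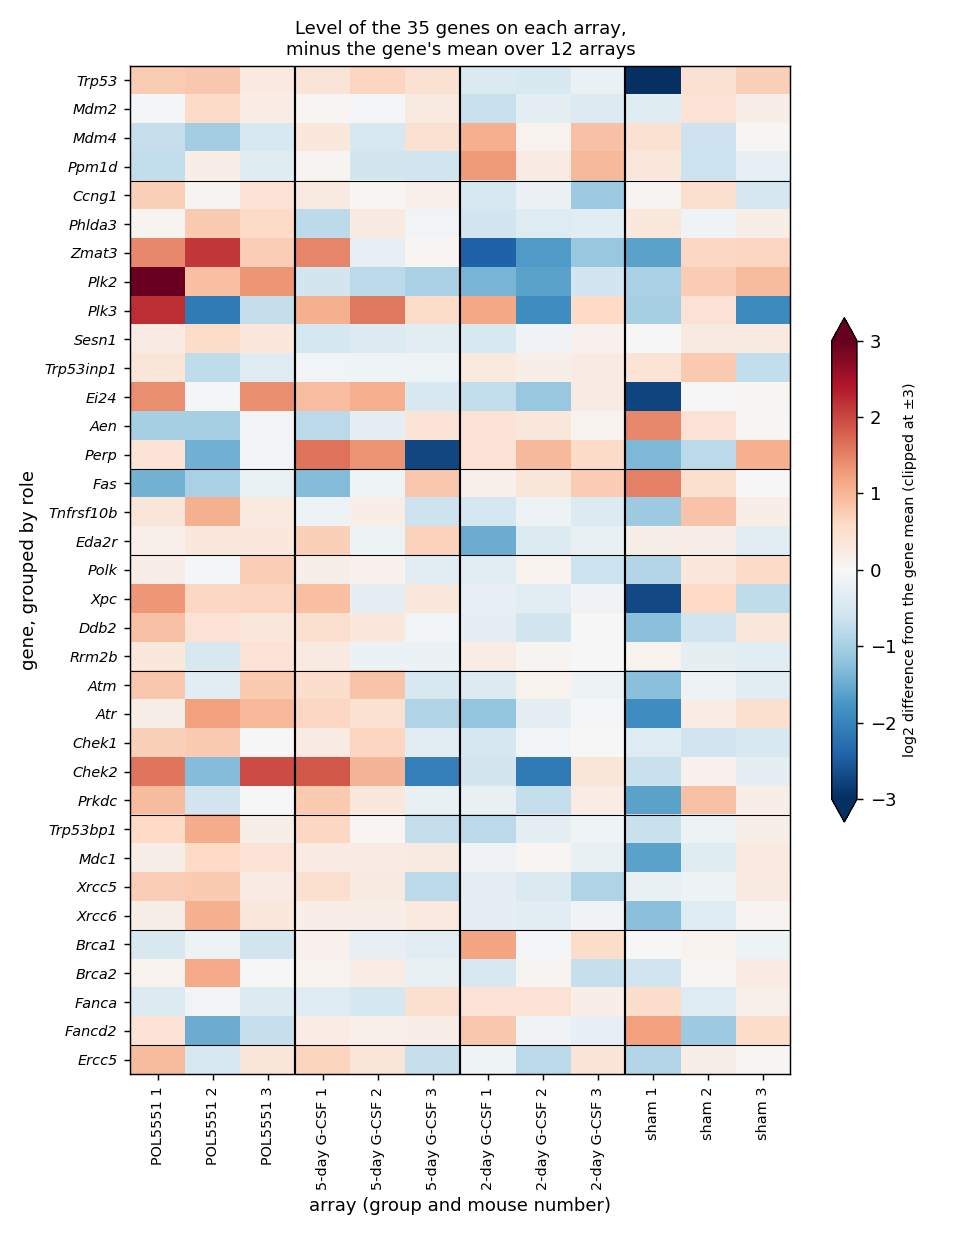
Level of each of the 35 genes (rows, grouped by role) on each of the 12 arrays (columns, 3 mice a group), as the log2 difference from the gene's mean over 12 arrays, red for higher and blue for lower, clipped at ±3. Sham 1 is the lowest array for 12 of the 35 genes, and the 3 arrays of 2-day G-CSF are blue for Plk2 and Zmat3, where POL5551 arrays are red.

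No gene of the 35 passed an adjusted p of 0.05 in limma's test for any difference among the 4 groups, where 1.53% of all genes did. The smallest adjusted p in that test was 0.0576, for Plk2, followed by 0.0623 for Zmat3. At an unadjusted p under 0.05, 4 of the 35 passed, against 34.5% of all genes. None of the 35 passed in POL5551 against sham (2.66% of all genes called), in 5-day G-CSF against sham (0.0603%), in 2-day G-CSF against sham (0.0362%), in 5-day against 2-day G-CSF (0%) or in POL5551 against 5-day G-CSF (0.0603%). At an unadjusted p under 0.05 these 5 limma comparisons held 10, 0, 3, 3 and 2 of the 35, against 35.9%, 11.2%, 8.89%, 16% and 12.1% of all genes. In POL5551 against 2-day G-CSF, a comparison added after the values were seen, 4 of the 35 passed (11.4%), against 31.5% of all genes, and 12 had an unadjusted p under 0.05, against 49.2%. Plk2, Zmat3 and Xrcc5 were higher in POL5551, where 5.33% of all genes were called higher, and Mdm4 was lower, where 26.2% were called lower. When each array's off-tissue median (described above) was added to the limma model, 0 of the 35 and 0 of all genes passed there, with 2962 genes at an unadjusted p under 0.05. The off-tissue medians of POL5551 (-5.50 to -4.41) and 2-day G-CSF arrays (-2.98 to -2.68) did not overlap. The model can therefore hardly separate that term from the group, and losing a call under it decides nothing.

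The genes as a list lay higher in POL5551 than most genes did, without passing gene by gene. The median log2 difference of the 35, POL5551 minus sham, was 0.50, with 26 of 35 above 0, while the median over all genes was -0.58, with 34.4% above 0. Of the 35, 31 lay above the median of all genes. These 26 were above 0 under each of 5 other scalings as well, and 4 of the other 9 were below 0 under each of them. The medians moved with the scaling: with each array set to its own median, the 35 had a median of 0.93 and all genes had -0.15. Without sham 1 the median of the 35 was 0.32, with 24 of 35 above 0. With the off-tissue covariate it was -0.14, with 12 of 35 above 0, against -0.06 for all genes, so the direction of the list's median depended on that term. Every POL5551 array had a lower off-tissue median than every sham array, so that term and the group can hardly be separated. On slide 1, which held POL5551 mouse 1 and sham 1, the median difference of the 35 was 1.11 and that of all genes -1.25. On slide 2, which held POL5551 mouse 2 and shams 2 and 3, they were 0.09 and -0.22. Lists of cell type markers had medians above 0 too in POL5551 against sham. These were stem cell 0.34, primary granule 0.65, mature neutrophil 0.83, megakaryocyte 0.70, endothelial 0.42, and stroma and osteoblast 2.67. Below 0 were macrophage -0.34, erythroid -0.44, B lymphoid -0.31, T and NK -0.88 and mast cell -1.86. In 5-day G-CSF against sham the median of the 35 was 0.15, with 23 above 0, against -0.15 for all genes. It was -0.03 without sham 1, -0.11 with the off-tissue covariate, and 0.02 to 0.28 without any other single sham or 5-day mouse. In 2-day G-CSF against sham it was -0.07, with 17 above 0, against 0.09 for all genes. Its sign was not stable: it was -0.28 without sham 1, 0.17 without sham 2, 0.11 without sham 3, 0.16 without 2-day mouse 2, 0.02 without 2-day mouse 1 and 0.09 with the off-tissue covariate.

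The group means are set beside those of all genes. POL5551 had the highest of the 4 group means for 22 of the 35 genes and the lowest for 8, while over all genes it was highest for 25.6% and lowest for 55.1%. The 5-day G-CSF group had the highest mean for 3 of the 35 and the lowest for 2, near the shares over all genes of 10.4% and 8.73%. The 2-day G-CSF group had the highest for 7 and the lowest for 14, against 40.2% and 20.5% of all genes. Sham had the highest for 3 and the lowest for 11, against 23.8% and 15.7%. The median level of the 35 was -0.31, -0.07 and -0.18 on the POL5551 arrays. It was -0.18, -0.45 and -1.07 on the 5-day arrays, -0.93, -0.93 and -0.70 on the 2-day arrays, and -1.07, -0.43 and -0.72 on the sham arrays. The POL5551 arrays lay above all 2-day and all sham arrays in this median, and overlapped the 5-day arrays.

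**Figure D2:**
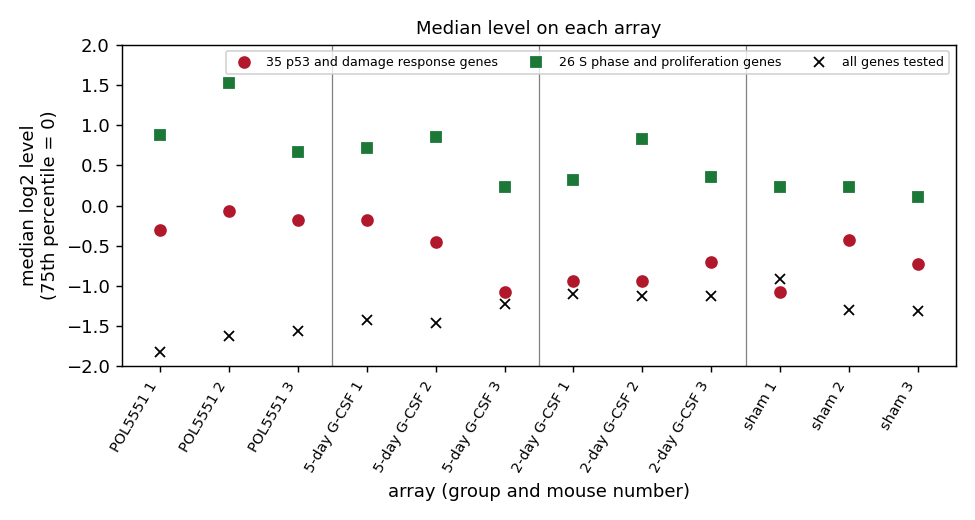
Median log2 level on each of the 12 arrays (75th percentile of the array = 0) of the 35 p53 and damage response genes (circles), of 26 genes of S phase and proliferation (squares) and of all genes tested (crosses). The circles reach -0.07 in POL5551 and -1.07 in sham 1, where the crosses lie above the circle.

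Among p53 and its inhibitors, Trp53 had levels of 3.11, 3.16 and 2.64 in POL5551 mice, 2.73, 3.01 and 2.80 in 5-day G-CSF mice, 1.93, 1.90 and 2.15 in 2-day G-CSF mice, and -1.07, 2.81 and 3.07 in sham mice. The 2-day levels were below every POL5551 and 5-day level, and sham 1 lay far below the other shams. The log2 difference, POL5551 minus sham, was 1.37 (SE 0.84, limma adjusted p = 0.230) with all shams and 0.03 (SE 0.26, adjusted p = 0.953) without sham 1. Sham held 97.8% of the within-group sum of squares of this gene. In POL5551 against 2-day G-CSF the log2 difference was 0.98 (SE 0.84, adjusted p = 0.349), and without sham 1 the same difference had an adjusted p of 0.00982.

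Mdm2, the ubiquitin ligase that degrades p53 and is itself its target, had levels of 0.67, 1.30 and 0.95 in POL5551 mice, 0.77, 0.69 and 0.98 in 5-day G-CSF mice, 0.06, 0.45 and 0.32 in 2-day G-CSF mice, and 0.34, 1.15 and 0.92 in sham mice. The 2-day levels were again below all POL5551 and all 5-day levels, and both treatments overlapped sham. Its log2 difference was 0.17 in POL5551 against sham (95% confidence interval -0.51 to 0.86), 0.01 in 5-day G-CSF against sham (-0.67 to 0.70) and -0.53 in 2-day G-CSF against sham (-1.21 to 0.16).

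Mdm4, a relative of Mdm2 that covers the activation domain of p53, had levels of 1.50, 1.15 and 1.70 in POL5551 mice, 2.50, 1.71 and 2.66 in 5-day G-CSF mice, 3.25, 2.30 and 3.08 in 2-day G-CSF mice, and 2.64, 1.57 and 2.22 in sham mice. POL5551 mice lay below all G-CSF mice of both groups. The log2 difference, POL5551 minus 2-day G-CSF, was -1.42 (SE 0.40, limma adjusted p = 0.0267). It rested on the probe: the 6 tested Mdm4 probes ran from -1.42 to 1.38 in this comparison, the 3 highest of them designed on RefSeq transcripts and the lowest on an Ensembl transcript, and their mean gave 0.09 (adjusted p = 0.810).

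Ppm1d, the phosphatase that switches damage signalling off, had levels of -1.24, -0.28 and -0.84 in POL5551 mice, -0.40, -1.04 and -1.08 in 5-day G-CSF mice, 0.80, -0.25 and 0.48 in 2-day G-CSF mice, and -0.14, -1.12 and -0.73 in sham mice. The 2-day levels were above all POL5551 and 5-day levels and overlapped sham. The log2 difference was 1.01 in 2-day G-CSF against sham (SE 0.41, limma adjusted p = 0.510) and -1.18 in 5-day against 2-day G-CSF (adjusted p = 0.256). Its other tested probe gave 0.77 and 1.15, so the probes differed in sign in the second comparison.

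**Figure D3:**
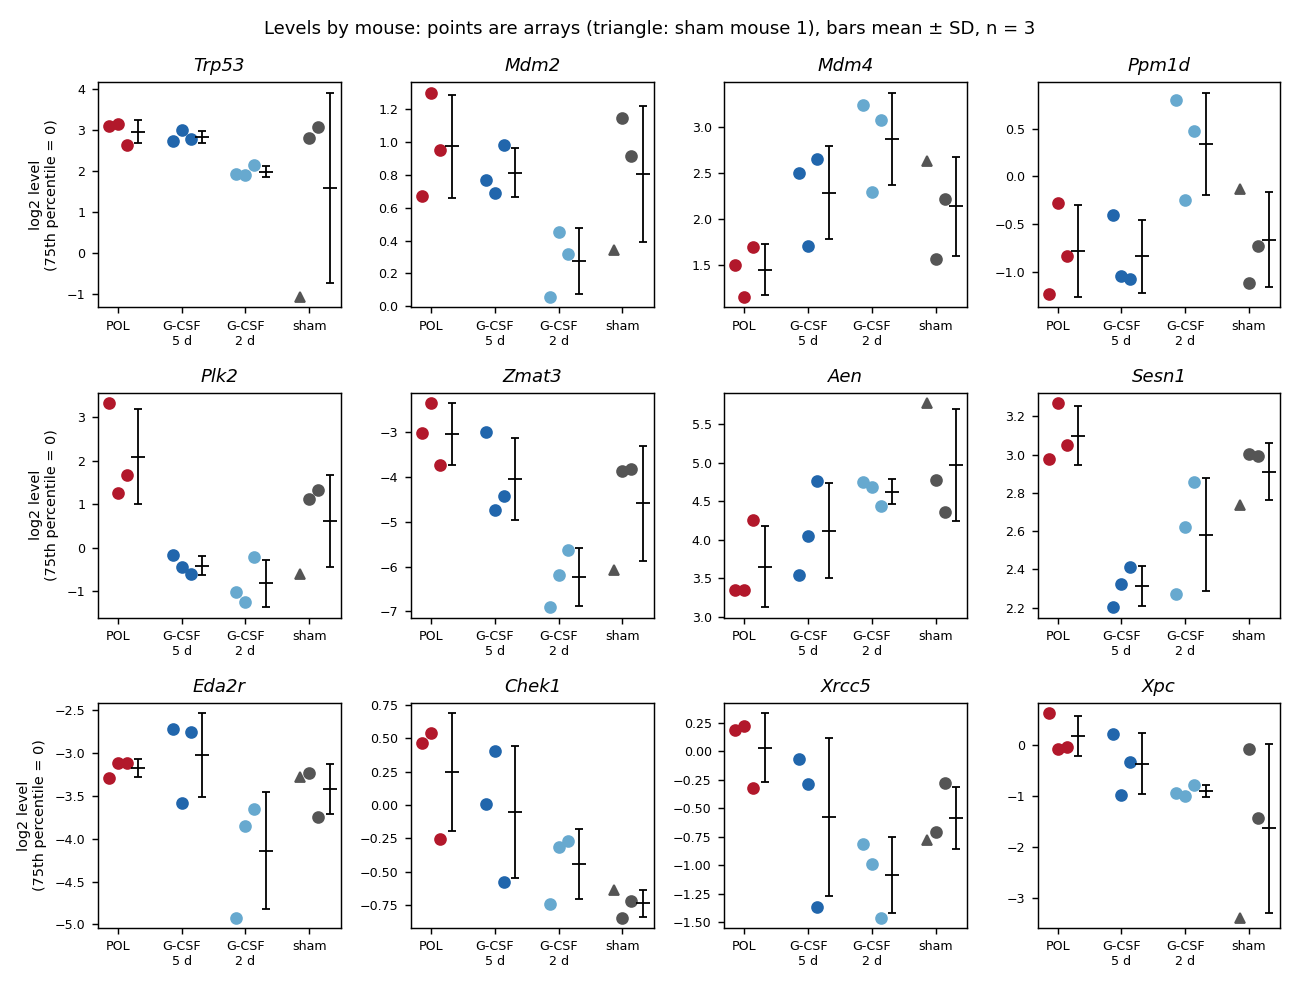
Log2 levels (75th percentile of the array = 0) of 12 of the genes, 1 point per mouse with sham mouse 1 as a triangle, and the mean ± SD of each group (n = 3). Trp53 in sham 1 is at -1.07 and in the other shams at 2.81 and 3.07, and Plk2 in all POL5551 mice is above all G-CSF mice.

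The smallest p-values over the 4 groups were those of 2 targets, Plk2 and Zmat3. Plk2, a polo-like kinase induced by stress, had levels of 3.33, 1.26 and 1.68 in POL5551 mice, -0.18, -0.45 and -0.61 in 5-day G-CSF mice, -1.02, -1.25 and -0.20 in 2-day G-CSF mice, and -0.61, 1.12 and 1.32 in sham mice. Every POL5551 mouse was above every G-CSF mouse, and POL5551 overlapped sham. The log2 difference, POL5551 minus 2-day G-CSF, was 2.92 (SE 0.61, limma adjusted p = 0.0139), and POL5551 minus 5-day G-CSF was 2.50 (SE 0.61, adjusted p = 0.240). Against sham, POL5551 was 1.48 higher (adjusted p = 0.119), 0.87 without sham 1. With the off-tissue covariate the first difference was 0.75 (SE 0.68, adjusted p = 0.759).

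Zmat3, an RNA-binding zinc finger protein induced by p53, had levels of -3.04, -2.36 and -3.74 in POL5551 mice, -3.01, -4.73 and -4.42 in 5-day G-CSF mice, -6.91, -6.18 and -5.63 in 2-day G-CSF mice, and -6.08, -3.87 and -3.84 in sham mice. POL5551 mice lay above all 2-day G-CSF and all sham mice. The probe was well above background on 3 of 3 POL5551 arrays, 2 of 3 5-day arrays, 0 of 3 2-day arrays and 2 of 3 sham arrays. A group with no array above background allows only a bound, the brighter group's mean over a floor, which on each array of the dimmer group is the dimmest probe that cleared background or the probe itself, whichever is higher. On that bound the mean of Zmat3 was at least 3.81-fold higher in POL5551 than in 2-day G-CSF. The limma adjusted p of 0.0140 was of the measured levels, and the bound itself was not tested. With the off-tissue covariate, which can hardly be separated from the group here, the call was lost (adjusted p = 0.748).

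Sesn1, a sestrin that restrains mTORC1, had levels of 2.98, 3.27 and 3.05 in POL5551 mice, 2.20, 2.32 and 2.41 in 5-day G-CSF mice, 2.27, 2.62 and 2.86 in 2-day G-CSF mice, and 2.74, 3.00 and 2.99 in sham mice. All 5-day levels were below all POL5551 and all sham levels. The log2 difference, 5-day G-CSF minus sham, was -0.60 (SE 0.27, limma adjusted p = 0.448), and POL5551 minus 5-day G-CSF was 0.79 (adjusted p = 0.380). The 2-day group overlapped sham and 5-day G-CSF.

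Aen, a nuclease that promotes apoptosis, had levels of 3.35, 3.35 and 4.26 in POL5551 mice, 3.54, 4.05 and 4.76 in 5-day G-CSF mice, 4.75, 4.68 and 4.44 in 2-day G-CSF mice, and 5.78, 4.78 and 4.37 in sham mice. POL5551 mice lay below all sham mice, with a log2 difference of -1.32 (SE 0.45, limma adjusted p = 0.0852). Of its other 4 tested probes, 3 were higher in POL5551 than in sham, up to 0.91, so the direction for this gene also depended on the probe.

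The other targets of arrest and stress were less separated. Ccng1, cyclin G1, had levels of -2.43, -3.08 and -2.72 in POL5551 mice and -3.64, -3.34 and -4.26 in 2-day G-CSF mice, without overlap (log2 difference 1.00, SE 0.36, limma adjusted p = 0.0514). Phlda3, an inhibitor of Akt, was 0.92 higher in POL5551 than in 2-day G-CSF (adjusted p = 0.0576), also without overlap. Ei24, a protein of the endoplasmic reticulum membrane, was 1.81 higher in POL5551 than in sham (adjusted p = 0.124) and 0.88 higher without sham 1. The 2 other tested Ei24 probes gave only 0.19 and 0.56 with all shams. Trp53inp1, which links p53 to autophagy, ranged over log2 differences from -0.51 to 0.09 in the 6 comparisons. Perp, a membrane protein of p53-dependent death, and the kinase Plk3 varied widely within a group, Perp with an SD of up to 2.44. Plk3 was well above background on 1 of 3 POL5551 arrays, 2 of 3 5-day arrays, 1 of 3 2-day arrays and 0 of 3 sham arrays, and was at least 1.46-fold higher in 5-day G-CSF than in sham (limma adjusted p = 0.515).

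Of the 3 death receptors, none passed in any of the 6 comparisons. Eda2r, a receptor of the tumour necrosis factor family, had levels of -3.29, -3.12 and -3.11 in POL5551 mice, -2.72, -3.59 and -2.76 in 5-day G-CSF mice, -4.92, -3.85 and -3.65 in 2-day G-CSF mice, and -3.27, -3.23 and -3.75 in sham mice. Both other treatments lay above all 2-day mice, with a log2 difference of 1.12 in 5-day against 2-day G-CSF (limma adjusted p = 0.258) and of 0.96 in POL5551 against 2-day G-CSF (adjusted p = 0.0744). Its other tested probe had the opposite sign in both, at -0.78 and -0.50. Tnfrsf10b, the mouse receptor for TRAIL, was 0.94 higher in POL5551 than in 2-day G-CSF (adjusted p = 0.127). The probe with the highest signal among those named Fas has a design position on chromosome 4, while the gene Fas lies on chromosome 19, so its values may not be those of Fas. That probe was 1.53 lower in POL5551 than in sham (adjusted p = 0.0982), and the 2 probes on chromosome 19, well above background on 5 and 7 of 12 arrays, were 1.37 and 1.00 lower.

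The 4 repair genes that p53 induces were all higher in POL5551 than in sham, none past the threshold. Xpc, which recognises bulky lesions, had levels of 0.63, -0.07 and -0.03 in POL5551 mice and -3.38, -0.08 and -1.43 in sham mice, without overlap. The log2 difference was 1.81 (SE 0.67, limma adjusted p = 0.0989), and 0.93 without sham 1 (adjusted p = 0.299). The other tested Xpc probe gave 0.60 with all shams. Ddb2, which finds ultraviolet damage, had levels of 1.78, 1.34 and 1.25 in POL5551 mice and -0.34, 0.30 and 1.25 in sham mice, a difference of 1.05 (adjusted p = 0.104). Its groups did not overlap, though the lowest POL5551 and the highest sham level were equal at the precision printed. Polk, a polymerase that copies past lesions, and Rrm2b, a subunit of ribonucleotide reductase, differed by 0.29 and 0.25, and Polk by -0.14 without sham 1. In 5-day G-CSF against sham the 4 had a median of 0.44, and in 2-day G-CSF against sham a median of 0.24.

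All 5 damage kinases had a mean above sham in POL5551 and in 5-day G-CSF, again with none past the threshold. Chek1, the kinase of stalled replication, had levels of 0.47, 0.54 and -0.26 in POL5551 mice, 0.01, 0.40 and -0.58 in 5-day G-CSF mice, -0.75, -0.32 and -0.27 in 2-day G-CSF mice, and -0.64, -0.84 and -0.72 in sham mice. All POL5551 and all 5-day levels were above all sham levels. The log2 difference, POL5551 minus sham, was 0.98 (SE 0.34, limma adjusted p = 0.0903) and 1.03 without sham 1 (SE 0.36, adjusted p = 0.196). Its second probe gave 0.86 in that comparison and -0.02 in 5-day G-CSF against sham, where the probe used gave 0.68. Atm and Atr, which head the break and replication branches, were 0.99 and 1.18 higher in POL5551 than in sham, and 0.65 and 0.44 without sham 1. Atr had 7 other tested probes, all designed on Ensembl transcripts, and 5 of these were lower in POL5551 than in sham. Chek2 differed by 1.03 with SDs of up to 2.06 within a group, and Prkdc, the catalytic subunit of the DNA-dependent kinase, by 0.29, or -0.42 without sham 1.

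The genes that hold and join broken ends were also all higher in POL5551 than in sham, by 0.62 to 1.04, none past the threshold. Xrcc5, a subunit of Ku, which binds DNA ends, had levels of 0.19, 0.22 and -0.32 in POL5551 mice, -0.07, -0.29 and -1.36 in 5-day G-CSF mice, -0.81, -0.99 and -1.46 in 2-day G-CSF mice, and -0.78, -0.71 and -0.28 in sham mice. POL5551 lay above all 2-day mice and overlapped 5-day G-CSF and sham, and the log2 difference, POL5551 minus 2-day G-CSF, was 1.12 (SE 0.38, limma adjusted p = 0.0466). Xrcc6, the other subunit of Ku, was 1.04 higher in POL5551 than in sham (adjusted p = 0.0949) and 0.67 without sham 1. Mdc1 and Trp53bp1, the scaffolds that gather at a break, were 0.97 and 0.85 higher in POL5551 than in sham, and 0.44 and 0.62 without sham 1. Sham held 93.6% of the within-group sum of squares of Mdc1.

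The genes of homologous recombination and the Fanconi pathway had means below sham in POL5551 in 3 of 4 cases, none past the threshold. For Brca1 and Fanca that direction changed with the scaling and with the probe. Brca1, which starts repair by recombination, had levels of 0.04, 0.38 and -0.03 in POL5551 mice, 0.65, 0.29 and 0.20 in 5-day G-CSF mice, 1.70, 0.45 and 1.08 in 2-day G-CSF mice, and 0.52, 0.64 and 0.36 in sham mice. POL5551 lay below all 2-day mice (log2 difference -0.95, SE 0.34, limma adjusted p = 0.0545), while the other tested Brca1 probe gave 0.73. Against sham the probes gave -0.37 and 2.35. Fanca, of the Fanconi core complex, and Fancd2, which that complex ubiquitinates, were 0.40 and 0.81 lower in POL5551 than in sham (adjusted p = 0.383 and 0.314). The 3 other tested Fanca probes were higher, by 0.22 to 2.94. Brca2, a mediator of recombination, was 0.53 higher in POL5551 than in sham, and Ercc5, the nuclease of excision repair, 0.50 higher (adjusted p = 0.303 and 0.447). Both other tested Ercc5 probes were lower in POL5551 than in sham, by log2 differences of -1.65 and -0.58.

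**Figure D4:**
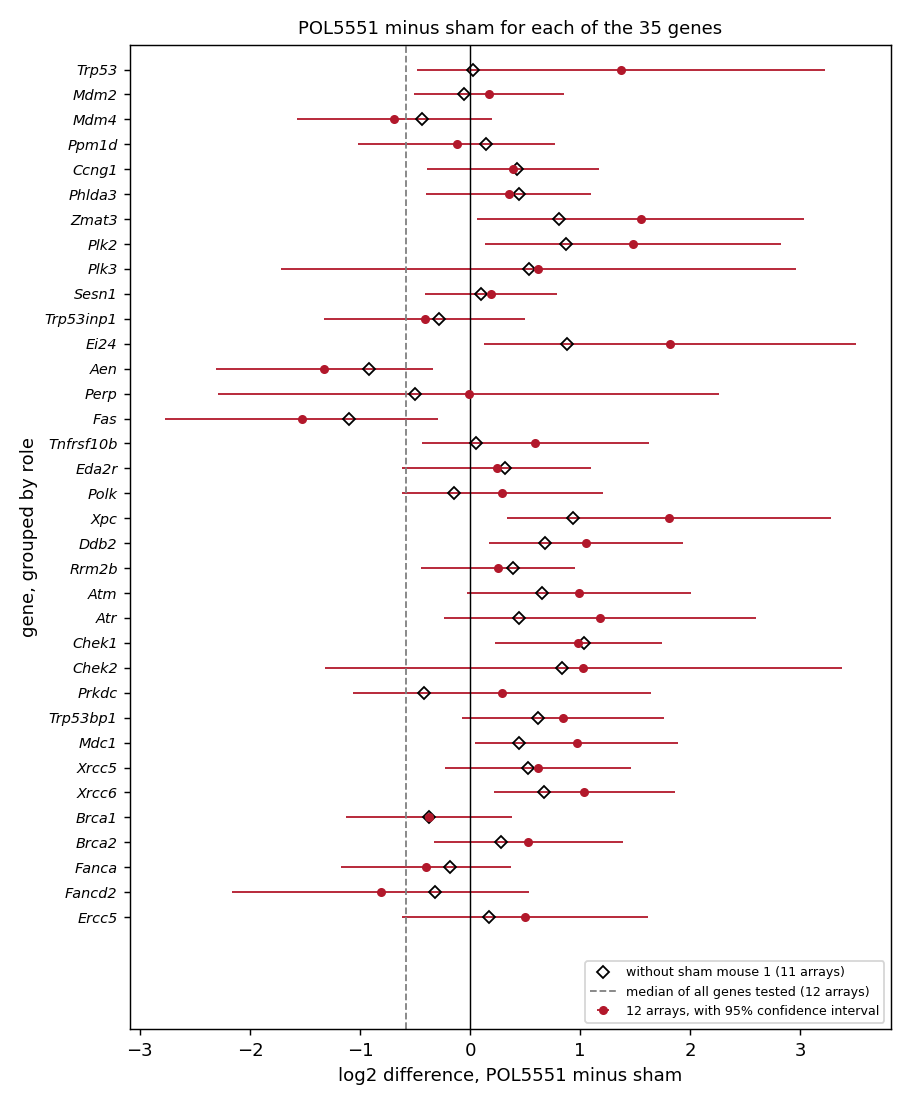
Log2 difference, POL5551 minus sham, for each of the 35 genes in the order of their roles: filled circles with 95% confidence intervals from limma over 12 arrays, open diamonds without sham mouse 1, and a dashed line at the median of all genes (-0.58). Trp53 is at 1.37 with all shams and at 0.03 without sham 1, while Chek1 is at 0.98 and 1.03.

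Groups without overlap were common among all genes, so the counts for the 35 are given beside them. In POL5551 against sham, 5 of the 35 (Zmat3, Xpc, Ddb2, Chek1 and Xrcc6) lay above sham in every mouse and 2 (Aen and the probe named Fas) below, against 9.33% and 27.5% of all genes. In 5-day G-CSF against sham it was 3 above (Plk3, Chek1 and Xrcc6) and 1 below (Sesn1), against 4.24% and 8.24%. In 2-day G-CSF against sham it was 0 above and 2 below (Phlda3 and Xrcc5), against 6.18% and 5.54%. In 5-day against 2-day G-CSF it was 7 above and 2 below, against 11.4% and 23.7%. In POL5551 against 5-day G-CSF it was 3 above (Plk2, Sesn1 and Tnfrsf10b) and 1 below (Mdm4), against 9.46% and 16.4%. Between POL5551 and 2-day G-CSF it was 17 above and 7 below, against 20.8% and 45%.

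The precision of the estimates set what could be seen. The standard error of a log2 difference over the 35 was 0.27 to 1.07, with a median of 0.42. For POL5551 against sham, the 95% confidence interval lay wholly within 1 log2 unit of 0 for 3 of the 35 genes, for 5-day G-CSF against sham for 6, and for 2-day G-CSF against sham for 2. For the other genes the interval did not exclude a difference of 1 log2 unit.

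Different probes of a gene often disagreed. Of the 35 genes, 23 had more than 1 tested probe, and all tested probes of a gene had the same sign in 13 of 23 in POL5551 against sham, in 13 of 23 in 5-day G-CSF against sham, in 8 of 23 in 2-day G-CSF against sham and in 13 of 23 in POL5551 against 2-day G-CSF. In POL5551 against sham the 10 genes whose probes differed in sign were Mdm4, Ppm1d, Trp53inp1, Aen, Tnfrsf10b, Polk, Atr, Brca1, Fanca and Ercc5. Of the 4 genes that passed against 2-day G-CSF, Plk2, Zmat3 and Xrcc5 have a single probe, and for Mdm4 the probes differed in sign.

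**Figure D5:**
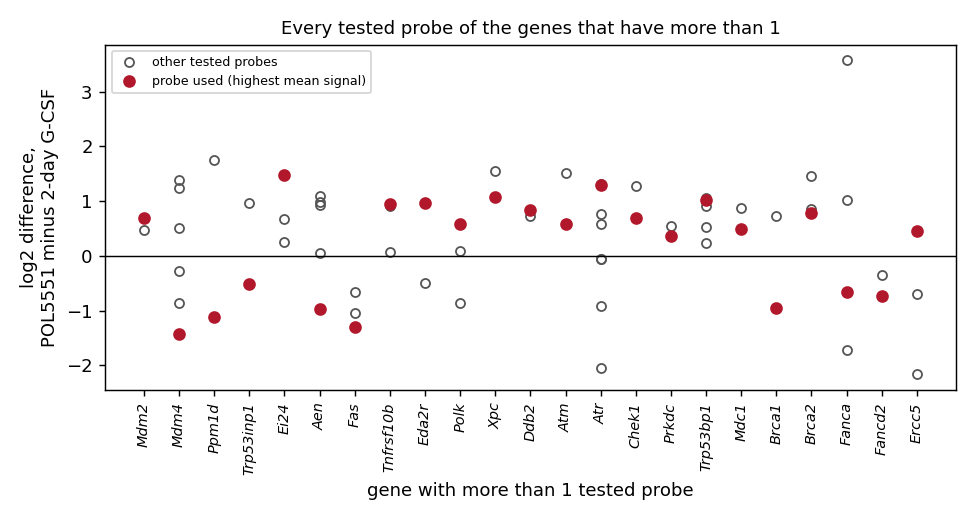
Log2 difference, POL5551 minus 2-day G-CSF, of every tested probe of the 23 genes with more than 1, with the probe used in the text filled and the others open. The probe used for Mdm4 is at -1.42 while the highest of its other probes is at 1.38, and that used for Aen is at -0.97 while its 4 other probes are above 0.

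A further 39 p53 targets outside the 35, 38 of them tested, gave 1 call in POL5551 against sham. There 2.66% of all genes were called in either direction and 0.175% were called higher. The call was Gtse1, a gene expressed in S and G2 phase, at least 2.65-fold higher in POL5551 by the bound used for Zmat3. Its limma adjusted p of 0.0445 was of the measured levels and not of that bound. Gtse1 was well above background on 3 of 3 POL5551 arrays, 1 of 3 5-day arrays, and no 2-day or sham array. It therefore passed the filter on dim signal only through the POL5551 arrays, where it was high. The median log2 difference of the 38 genes in POL5551 against sham was 0.31, against -0.58 over all genes. Between POL5551 and 2-day G-CSF they gave 4 calls higher (Ddit4, Fbxw7, Gtse1 and Tap1) and 5 lower (Gdf15, Pidd1, Sesn2, Trp73 and Zfp385a), where 31.5% of all genes were called. Gdf15, a secreted stress factor and p53 target, was 1.83 lower (SE 0.49, adjusted p = 0.0232), and Ddit4, an inhibitor of mTORC1, 1.91 higher (SE 0.58, adjusted p = 0.0320). The 38 genes had no call in the other 4 comparisons. The smallest adjusted p-values there were 0.355 for Steap3 in 5-day G-CSF against sham, 0.465 for Zfp385a in 2-day G-CSF against sham, 0.259 for Dram1 in 5-day against 2-day G-CSF and 0.378 for Ddit4 in POL5551 against 5-day G-CSF.

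Of 61 further genes of damage response and repair, all tested, 2 were called in POL5551 against sham, both higher. Over all genes 2.66% were called there in either direction and 0.175% were called higher. Fancm, the translocase that anchors the Fanconi core complex, rose by 1.97 (SE 0.44, limma adjusted p = 0.0448), and Fancf, a subunit of that complex, by 2.28 (SE 0.45, adjusted p = 0.0376) with 1 of 3 sham arrays above background. With the off-tissue median in the limma model, 0 of all genes passed in POL5551 against sham (1837 at an unadjusted p under 0.05), so the calls of Gtse1, Fancm and Fancf were lost. The off-tissue medians of POL5551 and sham arrays did not overlap, so that loss decides nothing about these genes. The median of the 61 genes in that comparison was 0.70, the same list in 5-day G-CSF against sham had a median of 0.17, and in 2-day G-CSF against sham 0.04. In POL5551 against 2-day G-CSF, Fancc, Fancl, Msh3, Usp1 and Xpa were called higher, and Ercc6, Fancg, Fanci and Topbp1 were among those called lower. The 26 genes of S phase and proliferation had no call in POL5551 against sham, with 24 of 26 higher, a median of 0.89, and a smallest adjusted p of 0.0502 for Clspn, an adaptor of Chek1. Their median level was 0.87, 1.52 and 0.66 on the POL5551 arrays, 0.71, 0.85 and 0.23 on the 5-day arrays, 0.31, 0.82 and 0.35 on the 2-day arrays, and 0.24, 0.23 and 0.11 on the sham arrays. Those medians were higher on every POL5551 array than on every sham array, as were the medians of the 35 genes. Among these, Rrm1 was called higher and Tk1 lower in POL5551 than in 2-day G-CSF. The part of proliferation in the levels of the 35 was not tested.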

How the data were processed

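Per the file headers, the deposited scanner files hold spot intensity on a linear scale from Agilent Feature Extraction 11.5.1.1, which subtracted background and spatial trends, without normalization between arrays. The authors' deposited table of intensity values, whose columns share a median of 1080, was an alternative only. Its columns match scanner files of the same group, though 5 of them under another mouse number.

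Values were log2 of the processed intensity minus each array's 75th percentile. Between 60 and 267 spots an array carried an outlier mark and were dropped, and none reached saturation. Probes well above background on at least 3 of 12 arrays (75.3% to 85.6% of probes per array) were tested. The probe with the highest mean represented each gene. Of 56605 probes, 12757 matched no gene symbol, and those that passed the filter were counted among all genes under their own names. The model was fitted to all 12 arrays with limma 3.58.1 under R 4.3.3, two-sided, adjusted by Benjamini-Hochberg over all genes at 0.05. The procedure was tested on simulated data. Precision is limited by how many arrays there are.

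The text names all 35 genes and, of the other lists, those called in a comparison or those with the smallest p. Values by mouse are given for called genes, the 8 of smallest p among the 4 groups, Trp53 and Mdm2. Values by mouse of Ccng1, Xpc, Ddb2 and Brca1 were added after they were seen. Members and lists were chosen with earlier results of these data known. Of the other p53 targets, 1 had no tested probe. Arrays lay on 6 slides. The 2-day arrays were alone on a slide, so that slide and group cannot be told apart there. Each of 5-day mice 1 and 3 was also alone on a slide, and no 5-day array shared a slide with sham. Alternatives covered scaling, background correction, filters, probe choice, slide and replicate blocks, array weights, an off-tissue covariate and leaving out each mouse. Some results of the other lists are not reported here.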

Additional observations from a re-analysis of the deposited data

How the results depend on the processing

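The counts of the 35 genes past an adjusted p of 0.05 in limma were 0 in 5 of the 6 comparisons and in the test over 4 groups, and 4 in POL5551 against 2-day G-CSF. Array weights, which gave sham 1 a weight of 0.114, raised the count to 1 in 2-day G-CSF against sham (Zmat3, with 3.5% of all genes called), to 9 in 5-day against 2-day G-CSF (37.7%), to 1 in POL5551 against 5-day G-CSF (Plk2, 0.829%), to 22 in POL5551 against 2-day G-CSF (60.2%) and to 3 in the test over 4 groups (31.3%). Probes above background on all arrays gave 7 in POL5551 against 2-day G-CSF (40.8%) and 1 in the test over 4 groups (15.3%). In POL5551 against 2-day G-CSF, median scaling gave 10 (25.8%) and the off-tissue covariate 0 (0%). Leaving out 1 mouse at a time gave 0 to 4 in POL5551 against sham. The 4 arose without sham 3 (Aen, Ddb2, Mdc1 and Xrcc6, 16% of all genes), and without sham 2 there was 1 (Xpc, 10.2%). It gave 0 to 3 in the test over 4 groups, with 3 without sham 1 (Plk2, Trp53 and Zmat3, 23.8%), and 0 in the other 4 comparisons that had none. In POL5551 against 2-day G-CSF it gave 0 to 18, with 18 without sham 1 (53.1%). It gave 0 there without POL5551 mouse 1 (0.723% of all genes called) or 2-day mouse 1 (0.347%). It gave 2 without POL5551 mouse 2 (6301 of all genes called) or 2-day mouse 3 (2276). The calls over all genes thus fell as well. The log2 difference of Mdm4 there was 0.094, of opposite sign, with the mean over all tested probes. The cause of these changes was not tested. With replicate numbers as a block, the count in POL5551 against 2-day G-CSF was 3 (Xrcc5 at 1.12, limma adjusted p = 0.0530), beside 8613 of all genes. The count was 0 in all others. Correlations of deviations ran from -0.313 to 0.257 between mice of the same number. Between mice of different numbers they ran from -0.271 to 0.428, and these ranges do not settle whether numbers pair the mice. Slide as a fixed block could not be fitted for comparisons with 2-day G-CSF, whose arrays were alone on a slide. It gave 0 in POL5551 against sham, where 1318 of all genes were called. In the comparisons with 5-day G-CSF it rested on 5-day mouse 2, as the other 5-day mice shared no slide with another array. The median log2 difference of the 35 there was 0.47 in 5-day G-CSF against sham and 0.11 in POL5551 against 5-day G-CSF.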
